A study of Mus musculus with 4 samples.

Results

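The 10 CC chemokine genes Ccl2, Ccl3, Ccl4, Ccl5, Ccl6, Ccl7, Ccl8, Ccl9, Ccl12 and Ccl24 were examined in cells from mouse tumors. They were found by exact gene symbol among 55367 gene rows per library, and all 10 were present in every library. Polyadenylated RNA had been sequenced in 4 libraries of cells sorted, per the labels, as CD45.2+CD8+ from dissociated tumors of B16-F10, a transplantable mouse melanoma line. CD45.2 marks blood-derived cells and CD8 marks cytotoxic T cells. By their titles, 2 libraries were WT and 2 were KO, and the series concerns the chromatin organizer Satb1. The series' design names Satb1 F/F alleles deleted by either ThPOK-cre, active in CD4-lineage T cells, or E8I-cre, active in CD8 T cells, beside WT mice. Across the study the mice were young adults of mixed sexes. For these libraries, the labels gave neither the driver behind the KO label, nor sex, age, days of tumor growth, or whether a library came from 1 animal or several.

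CC chemokines are small secreted proteins that guide leukocytes along concentration gradients by binding G protein-coupled receptors named Ccr. In tumors, monocytes and macrophages are a major source of them. Ligands of Ccr2 are known for drawing monocytes into tumors, and ligands of Ccr3 act on eosinophils. Satb1 folds chromatin in T cells, and the comparison of KO with WT asks how its loss relates to gene expression in tumor-infiltrating cells.

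The libraries held 4017875 to 5382915 gene counts, which were 20.5% to 28.8% of all reads in the tables. Satb1, the check of the labels, received 7 and 5 counts in the WT libraries and 131 and 55 in the KO libraries. This was opposite to the label (edgeR adjusted p = 0.115). Satb1 could not settle the labels, because the driver was not known and T cell marker counts differed as well. The T cell list described below had 270 and 453 counts in WT and 10915 and 6636 in KO. Every direction below is therefore that of the libraries as labeled. Xist had 435 and 216 counts in the WT libraries and 0 and 3 in the KO libraries, and the Y-linked gene Ddx3y had 0 and 0 against 188 and 81, so the sex of the animals and the group cannot be told apart. The sort was not borne out by its markers. With WT 1 and WT 2 given before KO 1 and KO 2, Cd8a received 24, 28, 843 and 733 counts and Cd3e 26, 41, 585 and 659, whereas the macrophage genes Csf1r with 3143, 4777, 2014 and 7019 counts, Adgre1 with 1533, 2287, 947 and 2849 and Lyz2 with 29370, 57521, 67802 and 58896 were more abundant. The list of 13 macrophage or monocyte markers held 3.01%, 4.02%, 2.33% and 2.89% of gene counts in the same order. The list of 10 T cell markers held 0.00672%, 0.0106%, 0.244% and 0.123%, and 9 of its genes passed the test as higher in KO. Shares on the melanoma list of 8 genes were 0.0219%, 0.0256%, 0.232% and 0.126%, those on the fibroblast or endothelium list of 6 genes 0.00207%, 0.00192%, 0.147% and 0.0203%, and those on the dendritic cell list of 8 genes 0.00645%, 0.0111%, 0.0544% and 0.0424%. The NK cell, CD4 T cell, B cell, neutrophil and granulocyte or mast cell lists each held at most 0.0156% in any library. The part of these differences in the results on chemokines was not tested. In such bulk samples, fewer cells of a type cannot be told apart from less RNA per cell.

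Apart from Ccl24, the genes lie in 2 groups on chromosome 11 of GRCm38/mm10. Ccl2, Ccl7, Ccl12 and Ccl8 follow each other on the plus strand within 81.2 kb, at chr11:82035571-82116799. These encode monocyte chemoattractant proteins, and the stretch is called the Ccl2 group here. Ccl5, Ccl9, Ccl6, Ccl3 and Ccl4 lie in that order within 138.9 kb at chr11:83525778-83664683, and this stretch is called the Ccl5 group. Ccl24 lies on chromosome 5 at chr5:135569937-135573049 on the minus strand. All 10 are protein coding, and their exons overlap those of no other annotated gene. No 50-base stretch of exon was shared with any other gene for 9 of them, and for Ccl9 1.97% of stretches were, so that reads could be assigned to single genes in spite of the family's common origin.

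The start regions of neighbors in each group are shown because the counts of such neighbors are compared below. RefSeq start regions, from 250 bases before to 50 bases after the transcription start, were at hand for 5 of the genes. These were Ccl3, Ccl6, Ccl8, Ccl9 and Ccl12, and the set used here had no entry for the other members. Capitals mark the TATA box letters TATAAA on the gene's strand and the letters AGGAAG, a core recognized by ETS factors, on either strand (CTTCCT where the core is on the other strand). Sequences are written from 5′ to 3′ along the gene's strand of GRCm38.p6, for Ccl12 at chr11:82101595-82101894 (plus), Ccl8 at chr11:82114935-82115234 (plus), Ccl6 at chr11:83593038-83593337 (minus) and Ccl9 at chr11:83578587-83578886 (minus).
Ccl12: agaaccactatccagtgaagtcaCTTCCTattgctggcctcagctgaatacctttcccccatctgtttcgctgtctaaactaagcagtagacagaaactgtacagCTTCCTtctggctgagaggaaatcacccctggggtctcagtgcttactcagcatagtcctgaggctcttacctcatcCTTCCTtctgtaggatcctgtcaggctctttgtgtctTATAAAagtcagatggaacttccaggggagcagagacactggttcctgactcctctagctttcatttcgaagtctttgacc
Ccl8: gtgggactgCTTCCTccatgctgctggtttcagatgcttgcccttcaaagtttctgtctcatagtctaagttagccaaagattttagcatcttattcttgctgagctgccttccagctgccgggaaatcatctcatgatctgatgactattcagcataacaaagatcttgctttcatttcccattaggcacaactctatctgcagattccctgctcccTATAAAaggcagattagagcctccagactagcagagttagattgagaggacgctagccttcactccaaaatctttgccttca
Ccl6: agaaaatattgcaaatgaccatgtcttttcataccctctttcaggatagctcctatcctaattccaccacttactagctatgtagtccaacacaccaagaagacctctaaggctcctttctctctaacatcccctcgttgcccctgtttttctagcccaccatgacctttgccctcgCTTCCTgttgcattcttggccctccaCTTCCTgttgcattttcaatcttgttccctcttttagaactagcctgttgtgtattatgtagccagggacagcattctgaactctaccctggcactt
Ccl9: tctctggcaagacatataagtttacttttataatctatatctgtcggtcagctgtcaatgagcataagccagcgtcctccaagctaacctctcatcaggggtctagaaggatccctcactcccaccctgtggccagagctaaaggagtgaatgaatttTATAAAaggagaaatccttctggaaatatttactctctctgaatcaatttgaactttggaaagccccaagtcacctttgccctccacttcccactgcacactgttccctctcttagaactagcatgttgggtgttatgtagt
The TATA box letters began at -31 in Ccl12 and at -32 in Ccl8, counted from the start, and at -92 in Ccl9. They were found in 3 of the 5 regions and in 8.32% of 32851 RefSeq start regions of the same length. The ETS core was found in 3 of the 5, at -227, -145 and -68 in Ccl12, at -241 in Ccl8 and at -73 and -47 in Ccl6, and in 35.4% of all regions. The AP-1 site TGACTCA, the interferon-response core (GAAA, 2 free bases and GAAA), the STAT core TTCNNNGAA and the kappaB core (GGGA, 4 free bases and CC), searched on both strands, were in none of the 5 windows and in 5.2%, 3.44%, 8.3% and 20.7% of all regions. Of the neighbors, Ccl6 and Ccl9 aligned over 74 columns with 79.7% identical bases, and Ccl8 and Ccl12 over 36 columns with 77.8%. The aligned stretch of Ccl6 ran from -59 to 15 and that of Ccl9 from -18 to 49, at different distances from the start. These local alignments scored 71 and 30, and the other 8 pairs of the 5 regions scored 16 to 21, with 19 for the neighbors Ccl3 and Ccl6.

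Levels of different genes were compared as RPKM, which scales reads to the length of the exons and to the gene counts of the library, averaged over the 4 libraries. Ccl6, a rodent ligand of Ccr1, stood highest at 2213, followed by Ccl7, a monocyte attractant that binds Ccr2, at 2064. Their order was not stable. Ccl6 was above Ccl7 in both KO libraries, below it in WT 1 and level with it in WT 2, at 2207 each. Then came Ccl8 at 1228, Ccl2 at 1003, Ccl4 at 908 and Ccl12 at 762. Of these, Ccl8 took the third place in 3 libraries but the sixth in KO 1. Ccl2 was above Ccl4 in only 2 libraries, and Ccl4 above Ccl12 in 3. Ccl9 at 410.4 RPKM, Ccl3 at 272, Ccl5 at 152 and Ccl24 at 30.2 held the lowest 4 places in the same order in all 4 libraries. Between libraries, Ccl8 varied most of the members, by 8.09-fold in normalized CPM, and Ccl3 least, by 1.79-fold.

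Between the groups, none of the 10 members passed the edgeR test at an adjusted p under 0.05. Of 11837 genes tested, 68 (0.574%) passed, of which 65 (0.549%) were higher and 3 (0.0253%) were lower in KO. None of the members had an unadjusted p under 0.05 either, which 1619 genes (13.7%) had, and none passed with DESeq2. Fold changes are given as KO over WT on the log2 scale. They were below 0 for 8 members and above 0 for 2, with a median of -0.50 against 0.051 over all genes tested and a range from -1.29 to 0.37. For 4 members, Ccl5, Ccl7, Ccl8 and Ccl12, both KO libraries lay below both WT libraries, as they did for 22.6% of all genes tested, and 47.9% of genes had groups apart in either direction. An exact permutation test of 2 libraries against 2 cannot give a p-value below 0.333. Nothing says that the libraries came from separate animals, so the p-values measure the spread between these libraries, which may be technical. Levels below are normalized CPM, which are counts scaled to a common total with trimmed mean (TMM) factors, with means ± SD of n = 2.

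**Figure D1:**
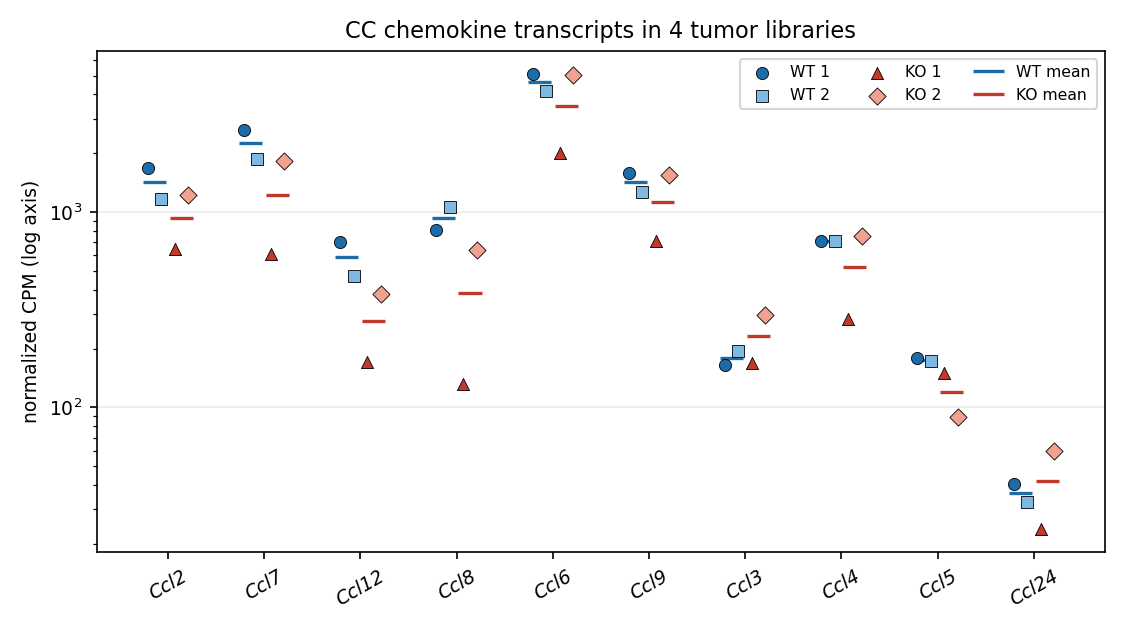
Normalized CPM of each CC chemokine in the 4 libraries on a log axis, with points for WT 1, WT 2, KO 1 and KO 2 and short lines for the group means (n = 2). KO 1 is the lowest library for 8 of the 10 genes, Ccl3 and Ccl5 being the exceptions, and KO 2 lies among or near the WT libraries for most.

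The Ccl2 group gave the lowest fold changes. Ccl8, which in the mouse acts through Ccr8, was at 806 and 1066 normalized CPM in WT 1 and WT 2 and at 132 and 636 in KO 1 and KO 2. The KO libraries were both below the WT libraries, but they differed from each other 4.82-fold. The means were 936 ± 184 and 384 ± 356, and the log2 fold change was -1.29 with an SE of 0.70 (edgeR adjusted p = 0.449). Ccl12, a mouse monocyte attractant that binds Ccr2, was at 703, 471, 171 and 383 in the same order of libraries. Both KO libraries were again below both WT libraries. The means were 587 ± 164 and 277 ± 149, with a log2 fold change of -1.08 and an SE of 0.54 (edgeR adjusted p = 0.415, the lowest of the members).

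Ccl7 was at 2639.7, 1866, 609 and 1825 normalized CPM in WT 1, WT 2, KO 1 and KO 2. KO 2 was almost level with WT 2, and only KO 1 stood apart. Its means were 2253 ± 547 and 1217 ± 859, and its log2 fold change was -0.89 with an SE of 0.63 (edgeR adjusted p = 0.555). Ccl2, the main monocyte attractant and a ligand of Ccr2, was at 1686, 1170.5, 644 and 1225. The groups overlapped, as KO 2 lay between the WT libraries. The means were 1428 ± 365 and 934 ± 411, with a log2 fold change of -0.61 and an SE of 0.54 (edgeR adjusted p = 0.648).

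In the Ccl5 group, the log2 fold changes lay between -0.56 and 0.37. Ccl5, which T cells and NK cells as well as macrophages make and which binds Ccr1, was at 179 and 173 normalized CPM in the WT libraries and at 150 and 89.4 in KO 1 and KO 2. It was the only member with its lowest value in KO 2. The means were 176 ± 4.18 and 119 ± 42.6, and the log2 fold change was -0.56 with an SE of 0.45 (edgeR adjusted p = 0.605). The T cell marker list was higher in both KO libraries, where Ccl5 was lower. As with Ccl5, that list was higher in KO 1 than in KO 2, and so were the melanoma, fibroblast or endothelium and dendritic cell lists. The part of T cells in the values of Ccl5 was not tested.

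Ccl6, the most abundant member in counts, was at 5121, 4181, 1995 and 5025 normalized CPM in WT 1, WT 2, KO 1 and KO 2. Its neighbor Ccl9, another rodent ligand of Ccr1, was at 1587, 1263, 713 and 1551. In both, KO 2 lay within the WT range and KO 1 below it. The log2 fold change was -0.41 with an SE of 0.62 for Ccl6 (edgeR adjusted p = 0.810). That of Ccl9 was -0.33 with an SE of 0.55 (edgeR adjusted p = 0.826).

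Ccl3 and Ccl4 encode macrophage inflammatory proteins, of which Ccl3 binds Ccr1. Ccl4 was at 709, 708, 284 and 758 normalized CPM, so that the WT libraries were almost equal and the KO libraries fell on either side of them. Its log2 fold change was -0.44 with an SE of 0.56 (edgeR adjusted p = 0.761). Ccl3 was at 166, 194, 168 and 296, and its highest value was in KO 2. Its log2 fold change was 0.37 with an SE of 0.46 (edgeR adjusted p = 0.762), the highest of the members.

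Ccl24, an attractant of eosinophils through Ccr3 that alternatively activated macrophages make, was the least abundant, at 40.3, 32.9, 23.8 and 60.0 normalized CPM. The KO libraries held both its lowest and its highest value. The log2 fold change was 0.20 with an SE of 0.53 (edgeR adjusted p = 0.900). Its receptor gene Ccr3 had 3, 3, 4 and 11 counts and was too low to test, and the eosinophil, basophil or mast cell list of 7 genes had 0 and 8 counts in the WT libraries and 103 and 64 in the KO libraries, of which Kit had 88 and 60 and Siglecf 13 and 4, while Epx, Cpa3 and Fcer1a were at 0 in all 4.

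The KO libraries differed from each other in these genes more than the WT libraries did. They did so over all genes tested as well, with a Pearson correlation of 0.944 between the WT libraries and 0.866 between the KO libraries. KO 2 was above KO 1 for 9 of the 10 members, with a median ratio of 2.38, while over 11834 genes the median ratio was 0.973 and 48.4% were above 1. WT 2 over WT 1 ranged from 0.669 to 1.32 over the members. The macrophage or monocyte markers had a like difference, with KO 2 above KO 1 for 11 of 13 genes and a median ratio of 2.64, the exceptions being Lyz2 and Ly6c2. Between the groups, 11 of the 13 markers had a log2 fold change below 0, with a median of -0.96 and a range from -1.75 for C1qa to 0.19 for Mrc1, and none passed the test. The part of macrophage content in the chemokine values was not tested.

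The fold changes of the members rested on which KO library was used. With KO 2 left out, Ccl8 had a log2 fold change of -2.86 (edgeR adjusted p = 0.00359), Ccl7 -1.92 (edgeR adjusted p = 0.0204), Ccl12 -1.81 (edgeR adjusted p = 0.0235) and Ccl4 -1.35 (edgeR adjusted p = 0.0464). These 4 members then passed the test as lower in KO 1, where 9.71% of 12852 genes passed and 4.07% passed as lower, and KO 1 was assumed to vary like the WT libraries. With KO 1 left out, none passed, and the log2 fold changes of Ccl4, Ccl6 and Ccl9 were 0.092, 0.11 and 0.12, on the other side of 0. Ccl2, Ccl5, Ccl7, Ccl8 and Ccl12 stayed below 0 whichever library was left out.

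Scaling the libraries by their counts on the macrophage or monocyte list, in place of the TMM factors, shifts all genes by about the same amount, so the members were read against the median of all genes tested. That median log2 fold change moved from 0.051 to 0.83 and the median of the members from -0.50 to 0.24, so the members lay 0.55 below all genes on the first scale and 0.59 below on the other. Lyz2 held 24.3% to 65.1% of the counts on that list, and without it the list's share of gene counts was 2.28%, 2.67%, 0.812% and 1.80% in WT 1, WT 2, KO 1 and KO 2. On this list of 12 genes, a scale chosen after seeing the data, the medians were 1.53 for all genes and 0.78 for the members, which lay 0.75 below. No member passed the test on either scale. Per 1000 counts on the full macrophage list, 2 members had both KO libraries above both WT libraries, as 53.7% of all genes did. They were Ccl3, with 4.56 and 4.58 counts in the WT libraries and 8.47 and 10.9 in the KO libraries, and Ccl24, with 1.11 and 0.777 against 1.20 and 2.21. The groups overlapped for the other 8, and no member had both KO libraries below, as 2.91% of all genes did.

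**Figure D2:**
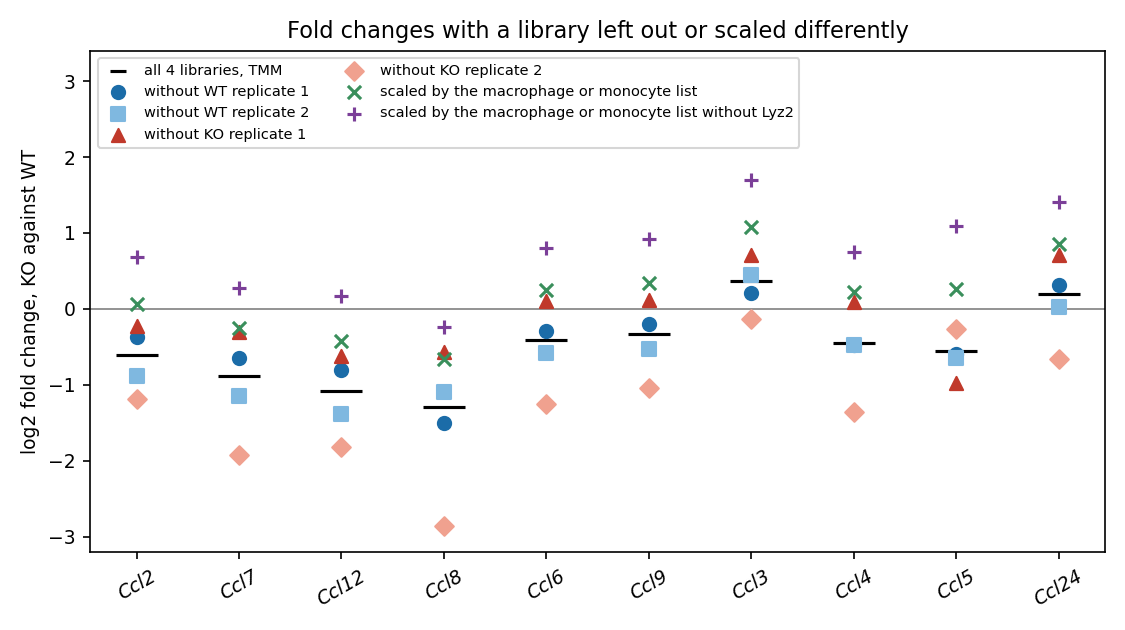
Log2 fold change (KO over WT) for each CC chemokine with all 4 libraries (black bars), with each library left out, and with 2 macrophage-based scalings. For 9 of the 10 genes the value without KO 2 is the lowest, and the macrophage-based values, which are shifted for all genes, lie above the black bar for all 10.

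The make-up of the chemokine counts was then compared. The 10 genes together took 1.13%, 1.05%, 0.574% and 1.26% of gene counts in WT 1, WT 2, KO 1 and KO 2. Within that total, the Ccl2 group took 42.8%, 41.1%, 31.8% and 34.3%. Both KO libraries were below both WT libraries in this share, which does not depend on the scaling. The mean was 41.9% ± 1.19 in WT and 33.1% ± 1.78 in KO (SD, n = 2), a difference of -8.87 percentage points. It ranged from -10.1 to -7.61 with each library left out. Its sign could not change in this, because the groups did not overlap. Within the group, Ccl2 itself took 12.4%, 10.5%, 13.2% and 10.3%, with overlapping groups, whereas Ccl7 took 19.4%, 16.8%, 12.5% and 15.4%, Ccl8 5.91%, 9.59%, 2.70% and 5.36%, and Ccl12 5.16%, 4.23%, 3.50% and 3.23%, each with both KO libraries below both WT libraries. The Ccl5 group took 56.9%, 58.6%, 67.7% and 65.2%, of which Ccl6 alone took 37.6%, 37.6%, 40.8% and 42.4% of all member counts. In the other direction, Ccl3, Ccl6, Ccl9 and Ccl24 had both KO libraries above both WT libraries. Ccl3 took 1.21%, 1.75%, 3.43% and 2.50%, Ccl9 11.6%, 11.4%, 14.6% and 13.1%, and Ccl24 0.295%, 0.296%, 0.486% and 0.507%. The groups overlapped for Ccl4 and Ccl5. The shares add up to a fixed total, so lower shares of some genes entail higher shares of others. No such rate over all genes is given, and with 2 libraries a group the shares are a description.

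**Figure D3:**
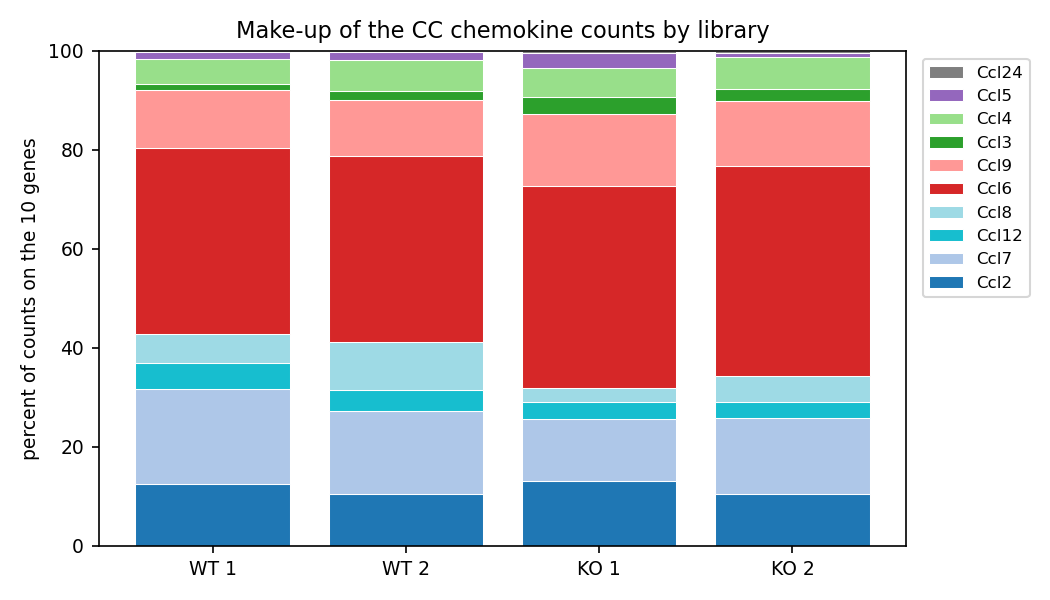
Percent of the counts on the 10 CC chemokines that each gene took in each library, stacked from Ccl2 at the bottom to Ccl24 at the top. The blue and cyan segments (Ccl2, Ccl7, Ccl12 and Ccl8) end at 42.8% and 41.1% in the WT libraries and at 31.8% and 34.3% in the KO libraries.

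Ratios of neighboring genes within a library are also free of the scaling. Ccl6 over Ccl9, the pair with the longest alignment of start regions, was 3.23, 3.31, 2.80 and 3.24 in counts, with the highest 1.18 times the lowest, although Ccl6 itself varied 2.57-fold in normalized CPM. Ccl8 over Ccl12, the pair with the next longest alignment, was 1.15, 2.27, 0.770 and 1.66, with the highest 2.94 times the lowest. Ccl7 over Ccl12, with no start region of Ccl7 at hand, was 3.75, 3.97, 3.56 and 4.77. The highest was 1.34 times the lowest, and the groups overlapped. Ccl2 over Ccl8 varied more, at 2.09, 1.10, 4.88 and 1.93, with KO 1 highest. Ccl6 over Ccl3 was 30.9 and 21.5 in WT and 11.9 and 17.0 in KO, with the highest 2.60 times the lowest. Ccl4 over Ccl3 was 4.28 and 3.65 in WT and 1.69 and 2.56 in KO, so that for both ratios to Ccl3 the KO libraries lay below the WT libraries. Ccl2 over Ccl12 was 2.40 and 2.49 in WT and 3.76 and 3.20 in KO, and Ccl2 over Ccl7 0.639 and 0.627 against 1.06 and 0.671, with KO above WT in both. With 2 libraries a group, these ratios could not pass an exact test and are given as a description. A relation of the ratios to the start regions was not tested.

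Of the other 13 CC chemokines, 5 passed the filter on low counts and 7 had 0 counts in every library. Of the 5, 3 had an unadjusted p under 0.05 and were higher in KO (9.44% of all genes), 4 had both KO libraries above both WT libraries (25.3% of all genes), and 1, Ccl1, passed the test. It encodes a ligand of Ccr8 and received 1 and 7 counts in the WT libraries and 313 and 194 in the KO libraries, or 0.301, 1.73, 59.6 and 33.9 normalized CPM. Both KO libraries were far above both WT libraries, and the log2 fold change was 5.43 with an SE of 0.77 (edgeR adjusted p = 0.0269). Ccl22 and Ccl17, ligands of Ccr4 that mature dendritic cells make and that are named here after their values were seen, did not pass. Ccl22 was at 4.81, 6.93, 42.6 and 43.6 normalized CPM, with a log2 fold change of 2.87 and an SE of 0.52 (edgeR adjusted p = 0.051). Ccl17 was at 3.31, 3.72, 23.4 and 20.8, with a log2 fold change of 2.64 and an SE of 0.59 (edgeR adjusted p = 0.094). For both, the KO libraries were above the WT libraries by several times and close to each other, which was not so for most members. Their calls depended on the method, since Ccl22 was past the threshold in 10 and Ccl17 in 7 of 17 alternatives, with an edgeR or DESeq2 adjusted p from 0.000113 to 0.285 for Ccl22 and from 0.00301 to 0.453 for Ccl17.

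Of 16 CC and atypical chemokine receptor genes, 7 were tested and 3 had 0 counts in every library. Ccr7, the receptor that guides mature dendritic cells and T cells to lymph nodes, passed the test and had the lowest p of all genes. It was at 6.01, 8.92, 259 and 275 normalized CPM in WT 1, WT 2, KO 1 and KO 2. The KO libraries lay far above the WT libraries, with a log2 fold change of 5.15 and an SE of 0.52 (edgeR adjusted p = 0.0172). Ccr7 is also on the dendritic cell marker list, where it was the only gene to pass, and its ligand genes Ccl19 and Ccl21a had 0 counts in all libraries.

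Ccr1, Ccr2 and Ccr8, receptors of members, did not pass the test. Ccr2, which binds Ccl2, Ccl7 and Ccl12, was at 92.0 and 207 normalized CPM in WT and 493 and 212 in KO, with a log2 fold change of 1.24 and an SE of 0.58 (edgeR adjusted p = 0.389). KO 2 was barely above WT 2. The log2 fold change was 1.68 without KO 2 (edgeR adjusted p = 0.0374), 0.50 without KO 1 (edgeR adjusted p = 0.617), 0.69 without WT 1 (edgeR adjusted p = 0.99995) and 1.87 without WT 2 (edgeR adjusted p = 0.526). Ccr1, which binds Ccl3, Ccl5, Ccl6, Ccl7 and Ccl9, was at 229, 172, 212 and 236 with overlapping groups, and its log2 fold change was 0.16 with an SE of 0.43 (edgeR adjusted p = 0.901). Ccr8 had 0 counts in both WT libraries and 31 and 14 in KO. Against a floor of 3 counts in each WT library it was at least 5.07-fold higher in KO (edgeR adjusted p = 0.144), and it was past the threshold in 5 of 16 alternatives, with an edgeR or DESeq2 adjusted p from 0.00132 to 0.588.

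**Figure D4:**
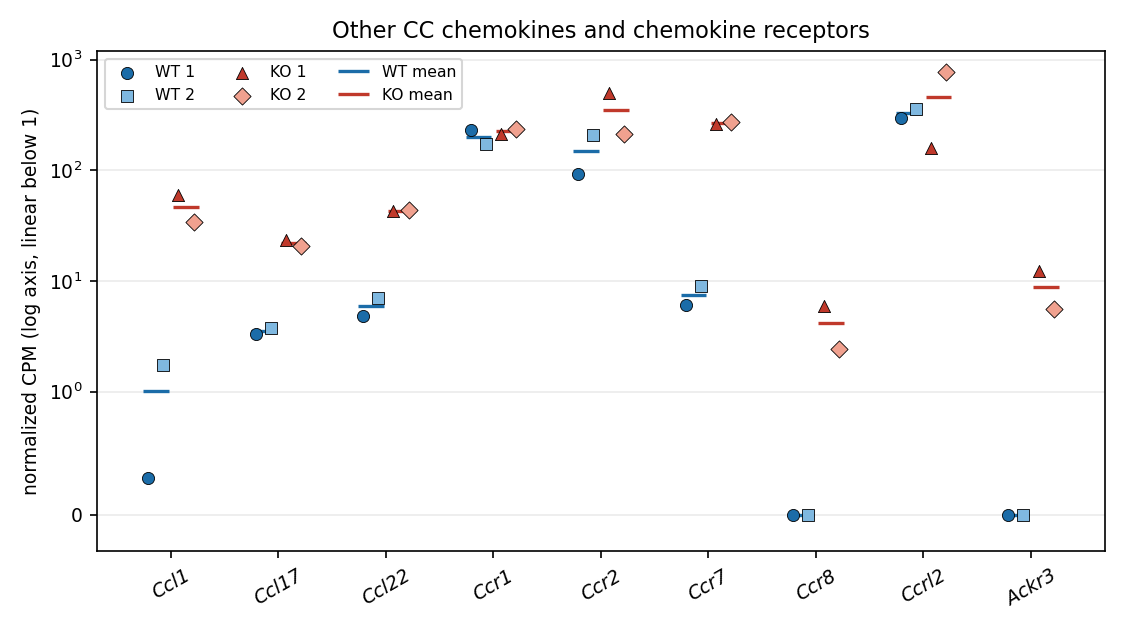
Normalized CPM of other CC chemokines and receptors in the 4 libraries, on an axis that is logarithmic above 1 and linear below, with lines for the group means (n = 2). Ccl1, Ccl17, Ccl22 and Ccr7 are higher in both KO libraries than in both WT libraries, Ccr8 and Ackr3 have 0 counts in WT, and the points of Ccr1 overlap.

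Among 18 genes that act downstream of these receptors, all tested, 1 passed. Rgs16, a regulator that shortens G protein signaling, received 15 and 24 counts in the WT libraries and 434 and 611 in the KO libraries, with a log2 fold change of 4.17 and an SE of 0.51 (edgeR adjusted p = 0.0172). The median log2 fold change of the 18 genes was -0.11. Ccl1, Ccr7 and Rgs16 were higher in the libraries in which the T cell, melanoma and fibroblast or endothelium lists held larger shares. Without Ccr7, the dendritic cell list held 0.00595%, 0.0103%, 0.0239% and 0.0132% of gene counts in WT 1, WT 2, KO 1 and KO 2, and the part of these cells in the values of Ccl1, Ccr7 and Rgs16 was not tested.

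**Figure D5:**
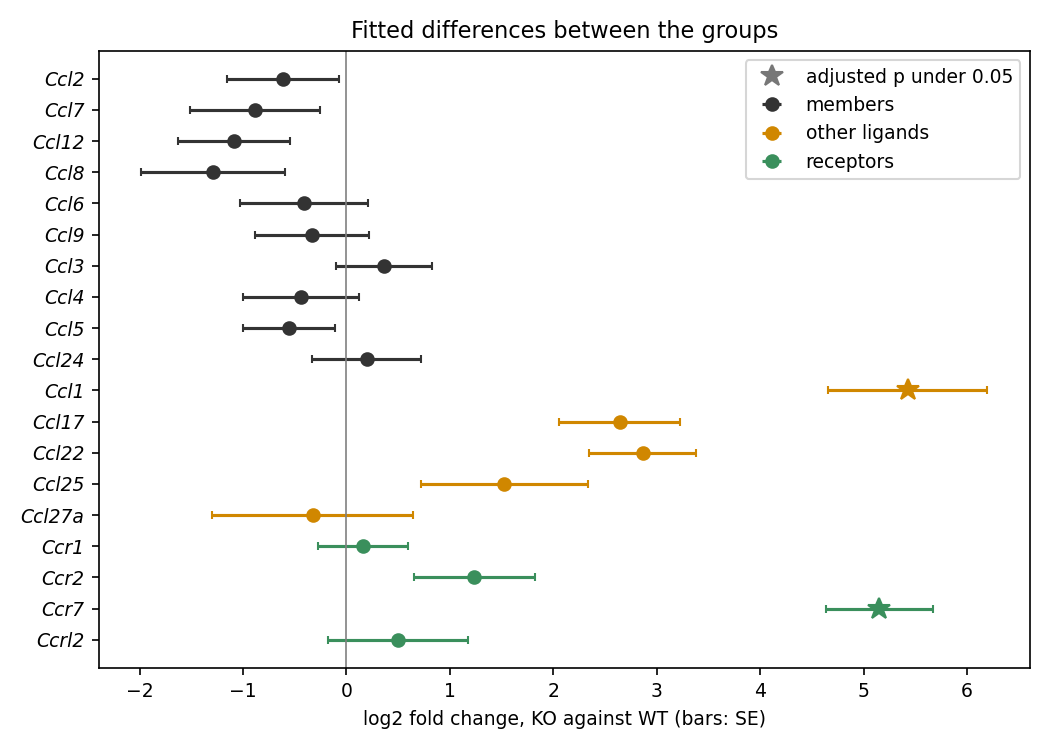
Log2 fold change (KO over WT) with its SE for the 10 CC chemokines (black), the other CC chemokines tested (orange) and the receptors Ccr1, Ccr2, Ccr7 and Ccrl2 (green), with a star where the edgeR adjusted p was under 0.05. The 10 members lie between -1.29 and 0.37, and the stars are Ccl1 at 5.43 and Ccr7 at 5.15.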

How the data were processed

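RNA was measured in 4 libraries, grouped by their titles as WT 1, WT 2, KO 1 and KO 2. The authors deposited raw counts per gene without normalization, 1 table per library. Per the submitters' processing notes, HISAT2 2.1.0, mm10 and HTSeq 0.11.0 were used. The annotation and strand setting were not given in the sources used here, so antisense reads cannot be told apart. The 5 summary rows of each table were kept out of library sizes and tests (__no_feature 22.3% to 29.5%, not aligned 30.3% to 44.2%, low quality 6.04% to 7.71%, not unique 4.16% to 4.60% and ambiguous 0.830% to 1.09% of reads). The depth allowed a floor of 3 counts, or 0.524 to 0.902 normalized CPM, which covers counting error only.

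The analysis used edgeR 4.0.16 in R 4.3.3 (filterByExpr with at least 10 counts and 15 in total, TMM factors, glmQLFit and glmQLFTest, group as the only term, prior count 0.125, two-sided). Benjamini-Hochberg adjustment covered the 11837 genes that passed the filter, and an adjusted p under 0.05 was called. The SE is the log2 fold change divided by the square root of F. RPKM used merged exons and plain gene counts. Positions came from GENCODE M21 (GRCm38), and start regions from RefSeq, aligned locally (match 2, mismatch -3, gap opening -5, gap extension -2). Alternatives were other scalings, filters and tests (among them DESeq2 1.42.0), a replicate block and each library left out. Plots used matplotlib 3.10.9.

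The members, lists and tests were chosen with earlier results of these data known. Named were all members, genes of the other CC chemokine, receptor and signaling lists past the threshold, the receptors Ccr1, Ccr2, Ccr3 and Ccr8 and 1 more that is not reported here, and check genes. Any other gene was named after its values were seen.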

Additional observations from a re-analysis of the deposited data

How the results depend on the processing

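The count of members past the threshold was 0 under every alternative except without KO 2, where it was 4, so that it ranged from 0 to 4 with each library left out. The adjusted p of no member was under 0.05 in any other setting. With plain CPM, no filter, DESeq2, the likelihood ratio test, macrophage scaling and macrophage scaling without Lyz2, the genes past the threshold numbered 134, 583, 374, 556, 734 and 1273 in place of 68. The lower calls among these were 3, 78, 63, 80, 7 and 4 in place of 3. In the same order the other CC chemokines numbered 2, 4, 3, 3, 3 and 3 and the receptors 2, 3, 2, 3, 3 and 4, in place of 1 each. With each library left out these counts ranged from 113 to 1248 (113 without WT 1, 228 without WT 2, 123 without KO 1 and 1248 without KO 2), from 1 to 4, and from 1 to 3, and the signaling genes from 1 to 3. Without KO 2 the other CC chemokines numbered 4, the receptors 3 and the signaling genes 3. Without KO 1 the other CC chemokines numbered 2, and without WT 1 or WT 2 the receptors 2. The cause of these shifts was not tested. The median over all genes moved from 0.051 to 0.39 with plain CPM, 0.24 without a filter, 0.26 with DESeq2, 0.83 with macrophage scaling and 1.53 without Lyz2. The median of the members lay 0.55 to 0.76 below it in these settings, but 0.071 below without KO 1 and 1.26 below without KO 2.

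The replicate numbers do not pair the samples by anything the labels say, and the deviations of WT 1 and KO 1 from their group means had a correlation of -0.19 across 11837 genes. With the replicate block 215 genes passed (201 higher), and 2 other CC chemokines and 2 receptors. With the crossed replicate block, added after seeing the data, 647 genes, 3 other CC chemokines and 3 receptors passed. Neither block changed the call of a member.

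Of 373 fold changes of named genes under alternatives, 313 kept their direction and side of the threshold, 40 passed it anew, 20 turned and none lost a call. Those that turned with macrophage scaling were Ccl2 (0.068), Ccl4 (0.22), Ccl5 (0.27), Ccl6 (0.25) and Ccl9 (0.34). Without Lyz2 in that list they were Ccl2 (0.69), Ccl4 (0.76), Ccl5 (1.09), Ccl6 (0.81), Ccl7 (0.27), Ccl9 (0.93), Ccl12 (0.17) and Plcb2 (0.29). With each library left out, Ccl4 ranged from -1.35 to 0.092, Ccl6 from -1.26 to 0.11 and Ccl9 from -1.04 to 0.12, turning without KO 1. Ccl3 ranged from -0.14 to 0.71, Ccl24 from -0.66 to 0.71 and Ccrl2 from -1.09 to 1.22, turning without KO 2, and Ccr1 from -0.081 to 0.33, turning without WT 2. Ccl1 (4.66 to 7.10), Ccr7 (4.85 to 6.64) and Rgs16 (3.93 to 5.59) stayed past the threshold under all alternatives. Members had 125 to 28792 counts per library, and the biological coefficient of variation over all genes was 42.5%.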

Other observations

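Ackr3, an atypical receptor that takes up chemokines without G protein signaling and is named here after its values were seen, had 0 counts in both WT libraries and 64 and 32 in KO 1 and KO 2, at least 10.8-fold higher in KO against a floor of 3 counts in each WT library (edgeR adjusted p = 0.062). It was past the threshold in 11 of 17 alternatives, with an edgeR or DESeq2 adjusted p from 2.41e-05 to 0.143. Ccl11, an eosinophil attractant that fibroblasts make, received 2 and 2 counts in the WT libraries, 95 in KO 1 and 1 in KO 2, and KO 1 was also the library with the highest fibroblast or endothelium share at 0.147%. Ccrl2, an atypical receptor of the chemokine receptor group, was at 297, 360, 159 and 768 normalized CPM, with KO 1 lowest and KO 2 highest as in Ccl24. Arrb2, an arrestin that ends receptor signaling, had a log2 fold change of -1.33 (edgeR adjusted p = 0.288), and Plcb2, a phospholipase, had one of -1.08 (edgeR adjusted p = 0.364), both with unadjusted p under 0.05 and KO below WT. Without KO 2, that of Arrb2 was -1.89 (edgeR adjusted p = 0.0169). Scaled to the macrophage list without Lyz2, which moved the median of all genes to 1.53, they were -0.025 for Arrb2 and 0.29 for Plcb2.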
